A study of Mus musculus with 4 samples.

Results

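A set of 10 genes of the TGF-beta and BMP pathways was followed through 2 deposited lists of N6-methyladenosine (m6A) sites from newborn mouse epidermis: the ligand gene Tgfb2, the receptor genes Tgfbr1, Tgfbr2, Bmpr1a and Bmpr2, the Smad genes Smad3, Smad4, Smad5 and Smad7, and the target gene Id1. They were taken by gene name from both lists. Of the 10 genes, 7 had at least 1 row, with 7 of the 6038 sites of list 1 and 10 of the 8246 sites of list 2. Smad4, Smad5 and Smad7 had no row in the lists used here, by name, by gene identifier or by position within the annotated gene.

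The RNA was that of control epidermal keratinocytes on postnatal day 0, from mice of the genotype K14Cre, Mettl14F/+. In such mice a keratin 14 promoter, active in basal keratinocytes, drives Cre recombinase, and a floxed allele of the m6A methyltransferase gene Mettl14 is paired with a wild-type allele. All 4 libraries share this genotype, so the controls carry Cre as well, and no group without Cre or without Mettl14 was analysed here. In MeRIP-seq, fragments recovered with an antibody against m6A (IP, 2 libraries) are compared with unselected fragments (input, 2 libraries), and a stretch where IP exceeds input is a site. The fold enrichment of IP over input, the -10 log10 p and the false discovery rate (FDR) of each site are the authors' own values. The lists hold no read counts, so depth is unknown, and they name no library, so no replicate error can be given for a site and no fold could be tested between the lists.

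TGF-beta and BMP ligands bind paired type II and type I receptors on the cell surface. The type II receptor activates the type I receptor, which phosphorylates receptor Smads, and these join Smad4 and enter the nucleus to regulate target genes. In epidermis TGF-beta restrains the division of keratinocytes, and BMP signals act in differentiation and in the resting phase of the hair follicle. m6A, placed on nascent transcripts by the METTL3 and METTL14 complex, is read by proteins that change the splicing, stability or translation of the RNA.

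The receptor genes carried most of the sites: 6 of 7 in list 1 and 8 of 10 in list 2. Bmpr2 alone had 3 and 4 of these, and Bmpr1a 2 and 3. All 4 receptor genes had a site in at least 1 list, and among all 10 genes only Bmpr1a and Bmpr2 had sites in both. Bmpr2 was the only member with sites that overlapped between the lists, and no member had any when sites needed a p of 1e-05 or less, an FDR under 100%, a fold in the upper 50% or a place among equal numbers of the strongest sites. A site in either list was present in 28.9% of all protein-coding genes, expressed or not, against 7 of these 10. The members were chosen with earlier results of these data known, so this comparison cannot show an enrichment. Among genes with a site, 2 of 7 had it in both lists, and the share over all genes in the lists was 39.4%. For overlapping sites the count was 1 of 7, beside 27.2% of all genes with a site and 69.2% of genes with sites in both lists. With 7 genes these counts do not show the group to differ from other genes.

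**Figure D1:**
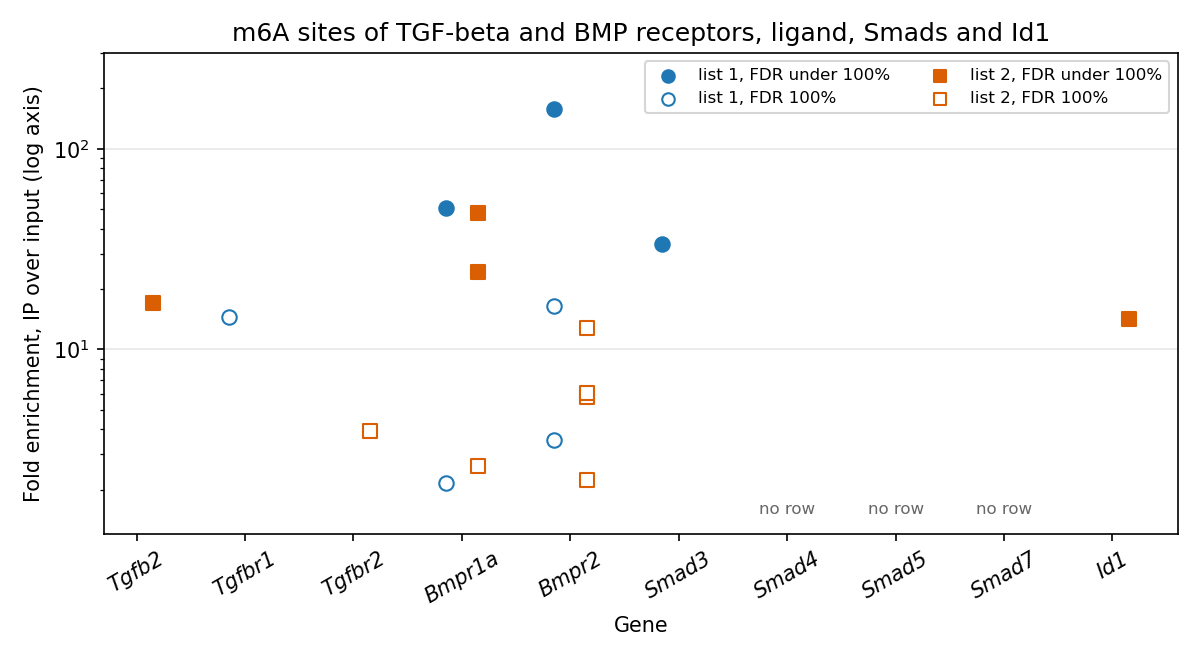
Fold enrichment of IP over input (log axis) at each of the 17 sites of the 10 genes, with circles for list 1 and squares for list 2. Filled symbols have an FDR under 100%. The highest point is a Bmpr2 site of list 1 at 157.62, the lowest a Bmpr1a site of list 1 at 2.16, and 3 genes have no row.

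Bmpr2 encodes the type II receptor for BMP ligands, and in contrast to most type II and type I receptors of the family it has a long cytoplasmic tail. It lies on chromosome 1, 59764279 to 59878081 on the forward strand (GRCm38, counted from 1, as are all positions here). List 1 held 3 sites for Bmpr2, a number reached by 9.89% of the genes of list 1. List 2 held 4, as did 6.82% of the genes of list 2 at 4 or more. The 7 sites fall at 5 places, all within the last 14301 bases of the annotated gene, which is 12.6% of its span.

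The most upstream Bmpr2 site covered exactly the same 173 bases in both lists, 59863781 to 59863953. Its fold enrichment was 157.62 in list 1 (-10 log10 p 3100, FDR 55.8%) and 5.82 in list 2 (-10 log10 p 31.4, FDR 100%). The values differed 27.1 times, or -4.76 on the log2 scale for list 2 minus list 1. Of the 2202 pairs of overlapping sites in the lists, 31.9% also shared both ends, 24.9% differed by more than 4 times in fold, and 5.72% differed by as much as this pair or more. Over all pairs the median size of the difference, in either direction, was 0.95 on the log2 scale.

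The second shared place of Bmpr2 lay further downstream, at 59868197 to 59868567 in list 1 and 59868366 to 59868615 in list 2. The sites had 202 bases in common, which is 54.4% of the first and 80.8% of the second. Fold enrichment was 16.44 in list 1 (-10 log10 p 663) and 2.24 in list 2 (-10 log10 p 7.22), with an FDR of 100% in both. The difference was -2.88 on the log2 scale, again with the higher value in list 1, and 14.9% of all pairs differed by as much or more. Among genes with overlapping sites, 16.1% had 2 or more such pairs, as Bmpr2 did.

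The other 3 Bmpr2 sites had no counterpart. List 1 held a site at 59870251 to 59870450 with a fold of 3.53. List 2 held a site at 59872812 to 59873184 with a fold of 12.71, its highest for this gene, and a site at 59875159 to 59875527 with a fold of 6.08. The nearest sites of the other list were 1635 bases away from the first of these and 2361 bases away from the second. In list 1 the fold fell from place to place towards the downstream end of the gene, from 157.62 to 16.44 to 3.53. In list 2 the highest fold was at the place next to last. These 5 sites, counting both members of the second pair, all had an FDR of 100%.

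**Figure D2:**
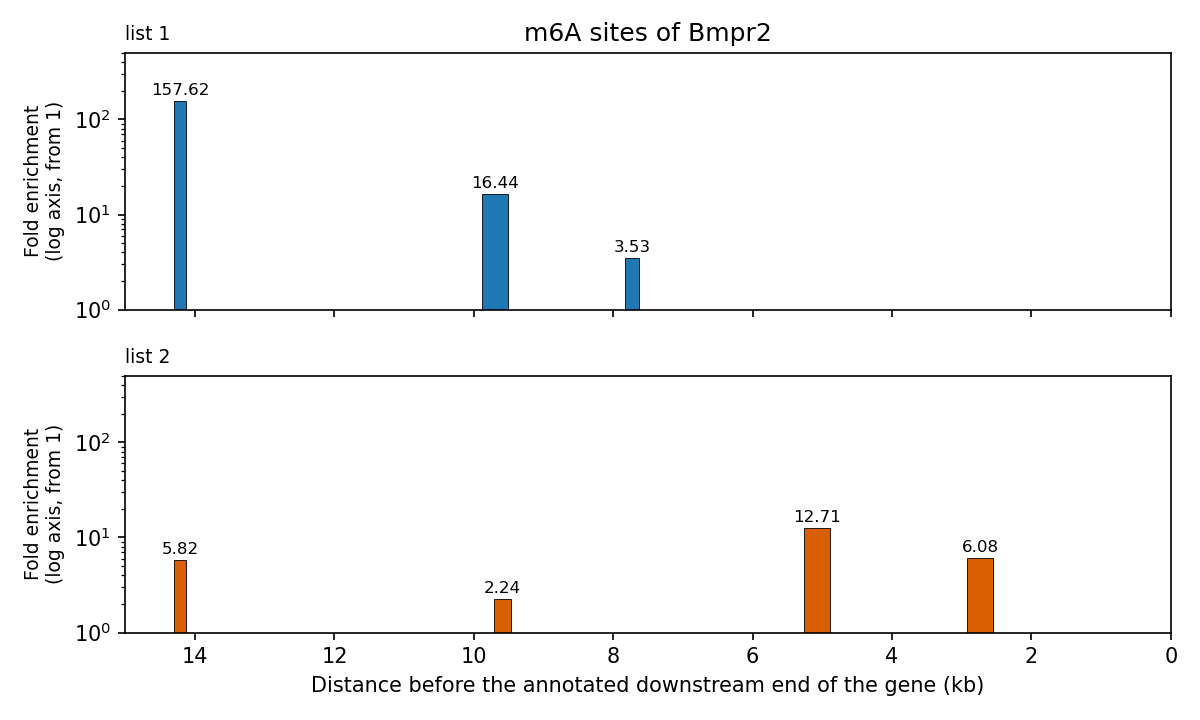
Bmpr2 sites of list 1 (top) and list 2 (bottom), drawn to scale by their distance in kilobases before the annotated downstream end of the gene. Bar height is fold enrichment on a log axis that starts at 1. The leftmost bars share 1 interval and reach 157.62 and 5.82, while the sites nearest the gene end, at 12.71 and 6.08, are in list 2 alone.

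Bmpr1a encodes a type I BMP receptor that is needed in mice for hair follicle differentiation. It lies on chromosome 14, 34411061 to 34503336 on the reverse strand, and had 2 sites in list 1 and 3 in list 2. In list 1, 27.4% of genes had at least 2 sites, and in list 2, 13.8% had at least 3. The strongest site of list 1, 34460499 to 34460532, was only 34 bases long and had a fold of 50.55 (-10 log10 p 3100, FDR 55.8%). The strongest of list 2, 34434379 to 34434478, had a fold of 47.87 (-10 log10 p 3100, FDR 59.5%). These values are close, but the sites are 26020 bases apart, so they describe different stretches of the gene.

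The remaining Bmpr1a sites did not overlap either. List 1 held a weak site at 34447772 to 34447978 with a fold of 2.16, and 98.4% of the sites of list 1 were higher. List 2 held a site of 49 bases at 34441099 to 34441147, where the fold was 24.17 and the FDR 74.2%. Its remaining site, at 34414321 to 34414666, had a fold of 2.63 and lay 3260 bases from the downstream end of the gene. The closest pair between the lists was 6624 bases apart. Bmpr1a thus had a site in both lists at the level of the gene and none at the level of position.

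Tgfbr1 and Tgfbr2, which encode the type I and type II receptors for TGF-beta, each appeared in a single list, and not in the same list. The Tgfbr1 site belonged to list 1 and lay at chromosome 4, 47396355 to 47396585, within the gene at 47353222 to 47414926 on the forward strand. Its fold was 14.57 (-10 log10 p 217, FDR 100%). The Tgfbr2 site belonged to list 2 and lay at chromosome 9, 116109760 to 116110086, within the gene at 116087695 to 116175363 on the reverse strand. Its fold was 3.94 (-10 log10 p 73.0, FDR 100%), and 79.5% of the sites of list 2 were higher. Neither receptor of the TGF-beta pair therefore had a second value against which its fold could be set.

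Tgfb2 encodes a TGF-beta ligand. Its site, in list 2, lay at chromosome 1, 186704719 to 186705018, and its fold was 16.94 (-10 log10 p 660, FDR 91.3%). The gene is read on the reverse strand, and the site began 971 bases and ended 1270 bases downstream of the annotated start of its RefSeq transcript. Of the 16 member sites with a known strand it was the only one near a start, while the others lay at 46.4% or more of the gene span from its upstream end.

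Of the 4 Smad genes, Smad3 alone had a row. Smad3 is a receptor Smad of the TGF-beta branch, and its site, in list 1, lay at chromosome 9, 63648591 to 63649008, where the fold was 33.48 (-10 log10 p 3100, FDR 55.8%). It was the longest of the 17 sites, with 418 bases. The gene spans 63646766 to 63757994 on the reverse strand, so that the site lay 1825 bases from its downstream end. Smad4 is the partner of all receptor Smads, Smad5 a receptor Smad of the BMP branch, and Smad7 an inhibitor of the type I receptors. The lists give no expression values, so the absence of a row could not be read against the level of the transcript.

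Id1, a direct BMP target that encodes an inhibitor of basic helix-loop-helix factors, had a site in list 2 at chromosome 2, 152736523 to 152736819. The fold was 14.17 (-10 log10 p 3100, FDR 59.5%). The gene is short, at 152736251 to 152737410, and the 297 bases of the site lay 272 bases above its lower and 591 bases below its upper boundary. The transcript named for this site is an Ensembl transcript, whereas those of the other members are RefSeq transcripts. None of the 17 member sites overlapped a second annotated gene.

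Over all members, 4 of 7 sites in list 1 and 5 of 9 in list 2 had their middle in the last 25% of the annotated gene, and over all sites with a known strand the shares were 44.0% and 43.8%. Bmpr2 supplied 3 and 4 of these, and without it the counts were 1 of 4 and 1 of 5. A Bmpr1a and a Tgfbr2 site of list 2, at 74.7% and 74.6% of the span, fell just short of this limit. All Bmpr2 sites of each list lay in this part. This held for 9.12% of genes with 3 or more sites of known strand in list 1. In list 2 it held for 5.68% of genes with 4 or more such sites. Within 5000 bases of the downstream end the members had 1 of 7 sites in list 1 and 2 of 9 in list 2. The shares over all sites with a known strand were 33.9% and 32.3%. The span includes introns, since exon and UTR annotation was not used here, so a place along the span is not a place along the mRNA.

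**Figure D3:**
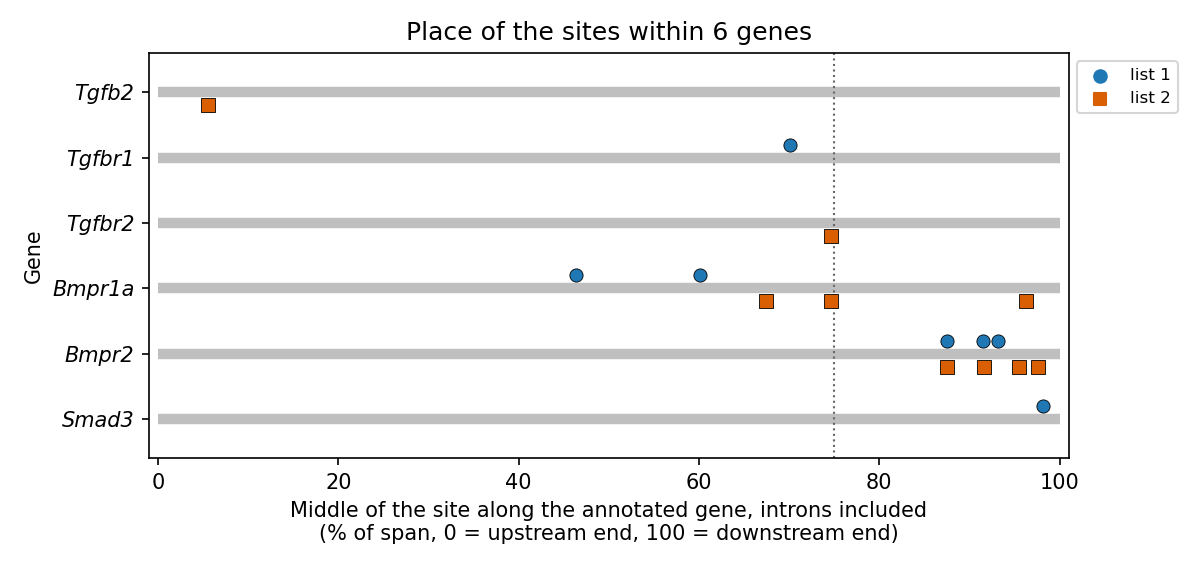
Middle of each site along the annotated gene, introns included, as a percent of the span from the upstream end (0) to the downstream end (100), with circles for list 1 and squares for list 2. The dotted line marks the start of the last 25%. The 7 Bmpr2 sites, the Smad3 site and 1 Bmpr1a site lie to the right of it and the Tgfb2 site lies at 5.56%, while Id1 is not drawn because the table used here gives no strand for it.

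The members' strongest sites did not reach the top of either list. The highest fold per gene was 157.62 for Bmpr2, 50.55 for Bmpr1a, 33.48 for Smad3 and 14.57 for Tgfbr1 in list 1, with a median of 42.0 over these 4 genes and 13.9 over all 4187 genes of the list. In list 2 it was 47.87 for Bmpr1a, 16.94 for Tgfb2, 14.17 for Id1, 12.71 for Bmpr2 and 3.94 for Tgfbr2, with a median of 14.2 over these 5 genes and 14.1 over all 5045. In list 1 Bmpr2 stood at rank 533 of 4187, and in list 2 at rank 2632 of 5045, whereas Bmpr1a stood at ranks 1122 and 1386. By this measure the order of these 2 receptor genes was opposite in the lists. The median over the members was thus above that of all genes in list 1 and next to it in list 2, and since the genes behind the medians differ, apart from these 2, the difference between the lists was not tested. The highest fold of a gene is taken over all its sites, of which Bmpr2 and Bmpr1a had several. Over single sites the member median was 16.44 in list 1, beside 11.58 over all sites. In list 2 it was 9.395, below the 11.93 over all sites.

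**Figure D4:**
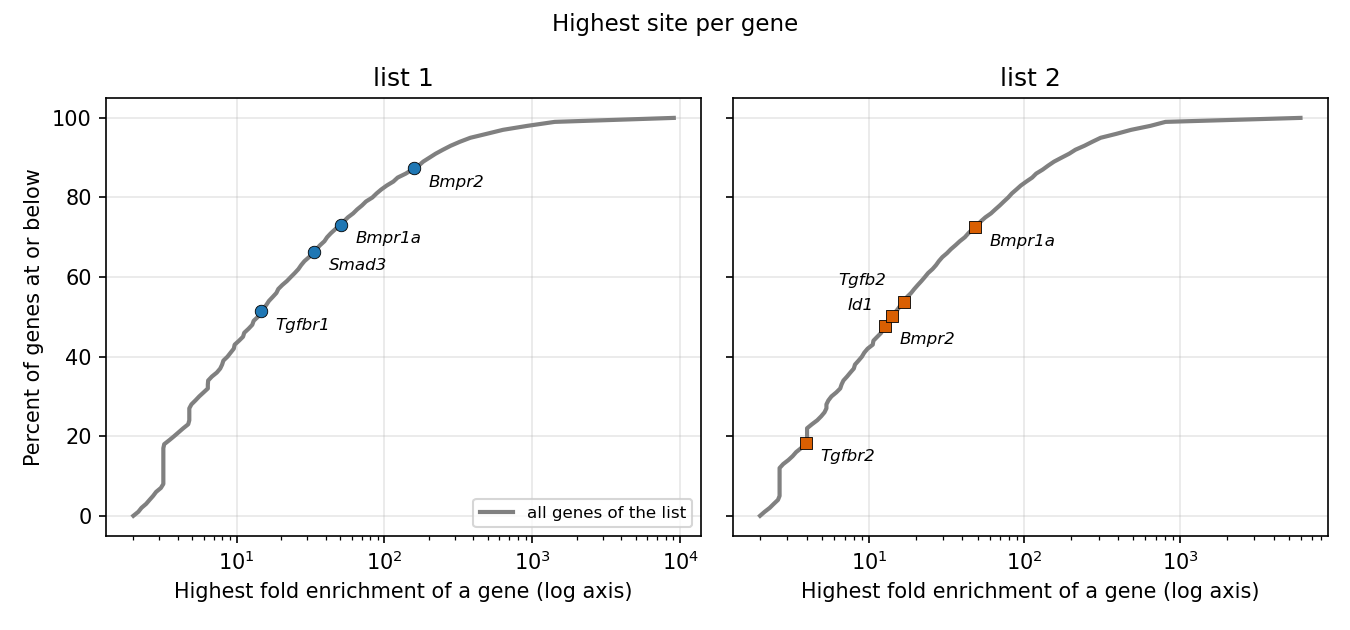
Percent of the genes of each list (y axis) at or below a given highest fold enrichment (x axis, log), drawn as a grey line for all genes, with the members marked. Members of list 1 run from Tgfbr1 at 14.57 to Bmpr2 at 157.62, and members of list 2 from Tgfbr2 at 3.94 to Bmpr1a at 47.87.

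By significance, 6 of 7 member sites in list 1 and 7 of 10 in list 2 had a p of 1e-05 or less, beside 73.7% and 76.9% of all sites. An FDR under 100% was found for 3 of 7 and 4 of 10, beside 40.8% and 48.5%. No site of either list had an FDR below 51.2%, so an FDR under 100% is a loose limit. A -10 log10 p of 3100 was shared by 3 of 7 and 2 of 10 member sites, beside 23.1% and 19.4% of all sites. By position, 2 of 7 and 2 of 10 overlapped a site of the other list, all in Bmpr2, beside 36.7% and 26.8% of all sites. The member sites were 34 to 418 bases long, with a median of 207 in list 1 and 298.5 in list 2 against 183 and 169 over all sites. With 7 and 10 sites these counts do not set the members apart from the lists as a whole.

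The pathway beyond the 10 genes was followed in a list of 60 further genes, of which 34 had a site. These genes too were listed with earlier results of these data known, so their share with a site is a description only. The share over all protein-coding genes, expressed or not, was 28.9%. Both lists held 13 of these 34 (38.2%), list 1 alone held 8 and list 2 alone 13, and 6 had overlapping sites (17.6%), against 39.4% and 27.2% of all genes with a site. The median of the highest fold was 15.8 in list 1 and 17.5 in list 2, beside 13.9 and 14.1 over all genes of the lists. Genes that the deposited annotation assigns to the TGF-beta signalling pathway largely recount the same genes, since 27 of the 43 with a site are members or among the 60. Of the 43, 14 were shared by the lists (32.6%) and 8 had overlapping sites (18.6%). All 7 members with a row carried this term. All 7 also carried the deposited term for Hippo signalling, which 18 of the 43 genes had, the 7 members included. Of all 6625 genes with a site, 87 had the Hippo term. These terms come from the annotation and are not a result of the sites.

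Of 8 further receptors of the family, 3 were present in both lists and 5 in none. A site was present in 28.9% of all protein-coding genes, and 39.4% of genes with a site had it in both lists. So few receptor genes do not show a difference from these shares. With an FDR under 100% only Acvr2a stayed in both lists, since every Acvr1 site of list 1 and the Acvr1b site of list 2 had 100%. Acvr1, a type I receptor for BMP and activin ligands, had overlapping sites from chromosome 2, 58462881, to 58462984 in list 1 and to 58463156 in list 2, with folds of 7.33 and 188.82. At these sites list 2 had the higher value, by 4.69 on the log2 scale. List 1 held an Acvr1 site of higher fold, 35.07, at 58566898 to 58567157, just upstream of the annotated gene. Its FDR was 100%, and its -10 log10 p of 148 was below the 187 of the overlapping site of list 1. Acvr2a, a type II receptor for activins, had sites at chromosome 2, 48899778 to 48900233 and 48899715 to 48900216, with folds of 53.79 and 27.26, which differed by -0.98 on the log2 scale, and its strongest site of list 1, with a fold of 123.8, did not overlap. Acvr1b, a type I activin receptor, had folds of 46.43 in list 1 and 3.14 in list 2 at sites that did not overlap. Tgfbr3, Acvr2b, Bmpr1b, Acvrl1 and Eng had no row.

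Sites were found for 6 of 10 other ligands, beside 28.9% of all protein-coding genes. The lists shared 2 of these ligand genes, and none had overlapping sites. Bmp2 had highest folds of 26.77 and 3.9, and Gdf11 2.74 and 2.67, while Tgfb1, Tgfb3, Bmp7 and Inhbb were in list 2 alone. Of the other Smads, Smad1 of the BMP branch was in list 1 (15.82) and Smad2 of the TGF-beta branch in list 2 (19.02), and Smad6 and Smad9 had no row. Of the 8 Smad genes in mouse only Smad1, Smad2 and Smad3 had a site, each in a single list. Over all genes with a site 39.4% were in both lists, and so few Smad genes do not show a difference from that share.

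Regulators of ligands had 7 of 13 genes with a site, and Fstl1 and Sostdc1 had overlapping ones. Fstl1, which encodes a secreted follistatin-like protein, overlapped at 3 places, with folds of 4.76 and 5.34, 30.7 and 114.67, and 46.78 and 8.74 from its upstream to its downstream end. Sostdc1, a BMP and Wnt antagonist, had 3.38 and 16.06. Regulators of Smads had sites in 13 of 14 genes, and 5 of these genes were shared by the lists. Of the 5, Ppm1a, a phosphatase that acts on Smads, had overlapping sites (21.97 and 3.18). The ubiquitin ligase genes Smurf2 (highest folds 103.6 and 14.47), Rnf111 (8.2 and 73.85) and Trim33 (3.53 and 74.79) and the coactivator gene Crebbp (581.69 and 64.55) had sites at different positions. Of 11 further targets 3 had a site. The counts of regulators and targets with a site stand beside 28.9% of all protein-coding genes, expressed or not, and were not tested. They come from a list made with earlier results of these data known. Id2, Id3 and Id4, relatives of Id1, had no row.

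**Figure D5:**
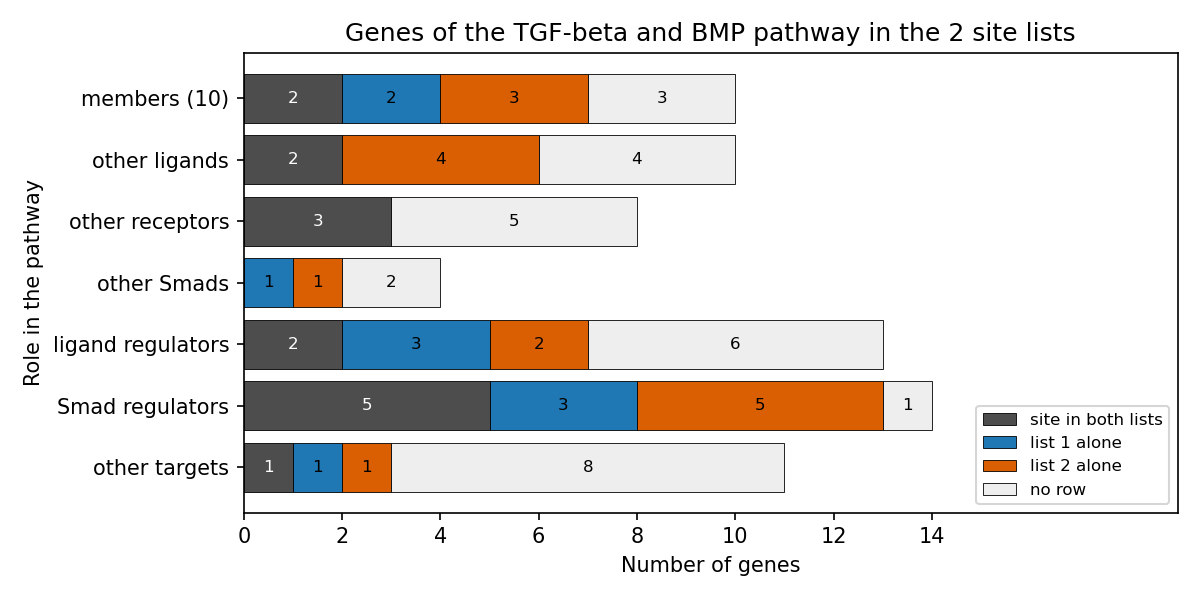
Number of genes found in both lists, list 1 alone, list 2 alone or neither, for the 10 members and for 6 groups of other pathway genes. Smad regulators have a row for 13 of 14 genes, and other receptors are in both lists (3) or in neither (5). Over all protein-coding genes the share with a row was 28.9%.

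Marker genes of cell types that the preparation could hold, also listed with earlier results of these data known, were looked up as well. A site is an enrichment of IP over input, so it gives neither the level of a transcript nor the presence of a cell type. Of 10 keratinocyte markers 6 had a site, among them Trp63 and Dsp, and Krt14, Krt15, Krt1 and Krt10 had no row. Sites were also present in 7 of 8 markers of dermal fibroblasts, 4 of 5 of melanocytes, 3 of 5 of endothelium and 2 of 5 of immune cells. The share over all protein-coding genes, expressed or not, was 28.9%. The highest folds of the fibroblast markers ran from 3.19 to 190.88 in list 1 and from 2.67 to 43.2 in list 2. For endothelium they were 3.19 and 385.73 in list 1, for Kdr and Flt1 alone, and ran from 2.67 to 4.01 in list 2. Keratinocyte markers ran from 2.53 to 85.65 in list 1 and from 17.01 to 108.66 in list 2. Melanocyte markers ran from 2.35 to 62.21 and from 9.45 to 111.25. Immune markers ran from 10.57 to 383.7 in list 1 and had no row in list 2. The receptors and Smads are expressed in many of these types, and the part of other cells in the members' sites was not tested.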

How the data were processed

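The 4 MeRIP-seq libraries, control input and control m6A IP with replicate numbers 1 and 2, were made from epidermal keratinocytes, per the labels. The authors deposited 2 site lists, and the site names point to MACS as caller. Per the submitters' processing notes the genome build was GRCm38. Not given in the sources used here are the caller's version, the aligner, the filters and the libraries behind a list. The deposited fold is a ratio, IP to input, never below 2. The deposited score is -10 times the log10 of a p-value and has ties at 3100. The deposited FDR is in percent, never below 51.2. Coverage and counts were not used, so depth and precision are unknown. Other deposited values are positions and lengths in bases, and 1 was added to each start.

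Rows were taken by gene name, sites were called overlapping from 1 shared base, and each site entered 1 pair, that of largest overlap. Spans, strands and starts came from RefSeq tables on GRCm38, and positions along a gene were taken at the middle of a site. The members and the pathway and marker lists were chosen with earlier results of these data known. All 10 members are named, and of the other pathway genes those with a site in both lists in values, with those of single lists or without a row named to complete a group. The values of 1 pathway gene are not reported here. No test was made, since no value per library was at hand. Members were read against the share of all genes or sites. The last 25% of the gene and the window of 5000 bases were chosen after the data were seen. The overlap step was tested on simulated data. Python 3.11.15, pandas 2.3.3, numpy 2.4.6 and matplotlib 3.10.9 were used.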

Additional observations from a re-analysis of the deposited data

How the results depend on the processing

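No paired analysis was possible because the lists carry no values per library and are not tied to replicate numbers, so no replicate could be left out either. Overlapping sites, found in 1 member, were found in 0 when sites needed a p of 1e-05 or less, with the upper 50% by fold, with an FDR under 100% and with equal numbers of the strongest sites, because the overlapping Bmpr2 sites of list 2 did not pass. A reciprocal overlap of 50%, sites up to 100 bases apart and assignment by gene span left the count at 1. Members with a site in both lists fell from 2 to 1 with an FDR under 100%, and members with a site from 7 to 4 in list 1 alone. Of the other pathway genes, 3 in place of 13 had a site in both lists with an FDR under 100% and 5 in the upper 50% by fold, and 2 in place of 6 had overlapping sites under each of these. Taking the strongest Bmpr2 site of each list gave a log2 difference of -3.63, in place of -4.76 and -2.88. The other counts and medians stayed within 1.5 times. The search for a GGAC core was not run, as no genome of the build was used here.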

Other observations

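Many weak sites of the lists share a single fold value. In list 1, 557 sites had a fold of exactly 3.19, with a median -10 log10 p of 14.1, and in list 2, 592 sites had exactly 2.67, with a median of 11.85. None of the 17 member sites had either value. Among the other pathway genes, Bmper and Ltbp2 had 3.19 in list 1, and Gdf11 and a site of Ltbp1 had 2.67 in list 2. The longest steps at the left of the curves of the highest site per gene lie at these values.

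Ltbp1, which encodes a protein that binds latent TGF-beta in the matrix, had the highest fold of the other pathway genes in list 2, 304.74 at chromosome 17, 75006088 to 75006361 (FDR 59.5%), and no row in list 1. In list 1 the highest was Crebbp with 581.69 at chromosome 16, 4179812 to 4180133 (FDR 55.8%), with 6 sites in list 1 and 2 in list 2, none of them overlapping.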
